A study of Arabidopsis thaliana with 8 samples.

Results

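The smn2 mutant was compared with wild type (WT) after 4 h of flg22 in 4 of the 8 libraries of the series, 2 per genotype, over all loci. The plants were 14-day-old whole seedlings of Arabidopsis thaliana, strain Landsberg erecta. One group was WT and the other the homozygous mutant, labelled smn2 -/-, and both were treated with 0.1 µM flg22 for 4 h. Seedlings of both genotypes at 0 h of the same treatment, 2 libraries per genotype, served as the baseline. RNA came from whole seedlings, so fewer cells of a type and less RNA per cell cannot be told apart. A mock treatment of 4 h was not analysed here, so a difference at 4 h is one between genotypes under the same treatment. The labels give neither the lesion of the allele nor the number of seedlings behind a library.

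flg22 is a peptide from bacterial flagellin, and the receptor kinase FLS2 at the plant cell surface binds it and starts pattern-triggered immunity. SMN2 is the gene HEN2, which encodes an RNA helicase of the nucleoplasm, and this identity is background knowledge and not from the labels. HEN2 helps to feed faulty, unspliced, read-through and non-coding transcripts to the nuclear RNA exosome, which degrades them from the 3′ end. In plants with little HEN2, such transcripts are known to accumulate.

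The 4 libraries at 4 h held 9729245 and 8635658 gene reads in WT and 8371963 and 6856882 in smn2, in the order of sequencing runs 910 and 918. Ribosomal RNA took 26.7% to 44.4% of gene reads over the 8 libraries, and the share was higher in run 918 than in run 910 for every group. Levels below are counts per 1000000 reads after scaling by the trimmed mean of M values (CPM), and each pair of levels is in the order run 910, run 918. A locus is written as higher or lower where the quasi-likelihood test of edgeR gave a Benjamini-Hochberg adjusted p under 0.05. All 30 genes of light harvesting and Rubisco and 24 of 27 root markers were detected well enough to be tested, as were 19649 of all 28642 loci. Detection at this level does not verify the labelled tissue. The summed light harvesting and Rubisco level was 22900 and 9320 CPM in WT and 19500 and 9750 CPM in smn2, and thus differed between runs more than between genotypes.

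After 4 h of flg22, 55 of 19649 loci were higher in smn2 (0.28% of loci tested) and 6 were lower (0.0305%). Loci higher in smn2 had log2 differences of 1.21 to 7.4, with a median of 2.09, against a median of -0.00895 over all loci tested. In all 61 called loci the libraries of the genotypes did not overlap, which held for 39.5% of all loci tested, and the difference had the same sign in both sequencing runs. The calls comprised 57 of 19186 tested nuclear protein-coding genes and 4 of 311 tested nuclear loci without an annotated exon length. They lay on all 5 chromosomes with 20, 10, 10, 9 and 12 loci from chromosome 1 to 5. The loci tested there numbered 5192, 2989, 3835, 3003 and 4559. With the sequencing run as a block, 108 loci were higher and 8 lower, and these included all 61. DESeq2 called 140 loci higher (0.713%) and 19 lower (0.0967%), 60 of the 61 among them.

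**Figure D1:**
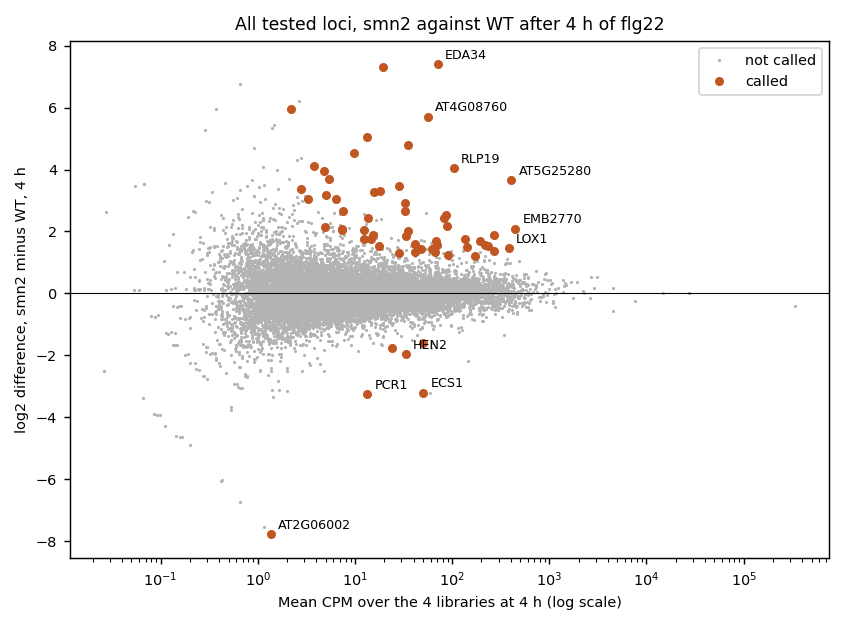
Log2 difference between smn2 and WT at 4 h (y axis) against mean CPM over the 4 libraries (x axis, log scale) for all tested loci, with the 61 called loci in orange. Called loci lie almost entirely above 0, with 55 higher and 6 lower.

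The number of calls rested on each 4 h library. Of the 61 calls, 12 were kept without the WT library of run 910, 6 without the WT library of run 918, 10 without the smn2 library of run 910 and 21 without the smn2 library of run 918. Without the WT 0 h library of run 910 or run 918, 49 or 48 were kept. All 61 kept their sign in each of the 8 refits. With genotypes that did not overlap at any of the 61, this outcome was all but fixed beforehand. The 6 loci AT1G34400, AT4G08760, AT4G16215, AT5G25280, AT3G45420 and AT3G04160 kept their call whichever library was left out, and each of the other 55 lost it in at least 1 refit.

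HEN2 (chromosome 2, 2894940 to 2901078, TAIR10), the mutated gene, had 55.7 and 50 CPM in WT and 12 and 15.1 CPM in smn2 at 4 h. Its log2 difference was -1.97 ± 0.2 (SE), with an adjusted p of 0.00481 in edgeR. The other 8 tested cofactors of the nuclear exosome were not called by edgeR, and DESeq2 called 1 of them higher. MTR4, the related helicase of the nucleolus, had 35.3 and 38 CPM in WT and 32.7 and 31 CPM in smn2, a log2 difference of -0.2 (edgeR adjusted p = 0.844). AT1G21580, a zinc finger protein gene of the same list, had 153 and 123 CPM in WT and 308 and 270 CPM in smn2 (log2 1.06 ± 0.26, edgeR adjusted p = 0.215). It was the cofactor called by DESeq2 (adjusted p = 0.0252), and edgeR called it with the run as a block (adjusted p = 0.0408). None of 11 tested subunits of the exosome core ring and none of 19 genes of cytoplasmic and nonsense-mediated decay was called by edgeR or DESeq2, with median log2 differences of 0.01 and 0.02. At an unadjusted p under 0.05 there was 1 gene of the core ring and 0 of the decay list, where 7.94% of all loci tested passed that line, 4.7% as higher and 3.24% as lower.

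The largest increases in smn2 were at loci almost silent in WT. EDA34 (AT4G00140, chromosome 4, 51166 to 53449), annotated as a calcium-binding EF-hand protein gene, had 7 reads in each WT library and 1610 and 660 in smn2, or means of 0.830 and 141 CPM. It differed by a log2 of 7.4 ± 0.71 (edgeR adjusted p = 0.00305). AT1G34400 (chromosome 1, 12565992 to 12566615), of unknown function, had 0.210 and 0.265 CPM in WT and 53.2 and 24.4 CPM in smn2, a log2 difference of 7.3 ± 0.53 (edgeR adjusted p = 0.000711). Both were near silence in each WT library and well expressed in each smn2 library.

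AT4G08760 (chromosome 4, 5584739 to 5591133), likewise uncharacterized, had 2.1 and 2.12 CPM in WT and 130 and 90.4 CPM in smn2. Its log2 difference was 5.7 ± 0.3, and its edgeR adjusted p of 0.000122 was the smallest of the comparison. AT4G16215 had 0.420 and 1.19 CPM in WT and 25.9 and 26.2 CPM in smn2 (log2 5.05 ± 0.37). In total 10 of the 55 higher loci had a WT mean under 1 CPM, a share not counted among all loci tested. AT5G23600, annotated as an RNA 2′-phosphotransferase of the family that completes tRNA splicing in yeast, had 1 read in both WT libraries together and 70 in smn2. The ratio scaled to library size was 77.9, with an exact 95% interval of 13.5 to 3120 that covers counting error only.

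Reads of several of these loci came mainly from outside annotated exons. In 8 of the higher genes with annotated exons, over 50% of the reads in smn2 were intron reads. The share of such genes among all loci tested was not counted. These were EDA34, AT1G34400, AT4G08760, AT4G16215, AT5G43570, AT1G17490, AT3G03370 and AT4G32230. Intron reads made up 74.6% of the smn2 reads of EDA34, 95.3% of those of AT1G34400 and 85.7% of those of AT4G08760. In WT the share was 71.4%, 75% and 66.7%, but of only 14, 4 and 36 reads.

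**Figure D2:**
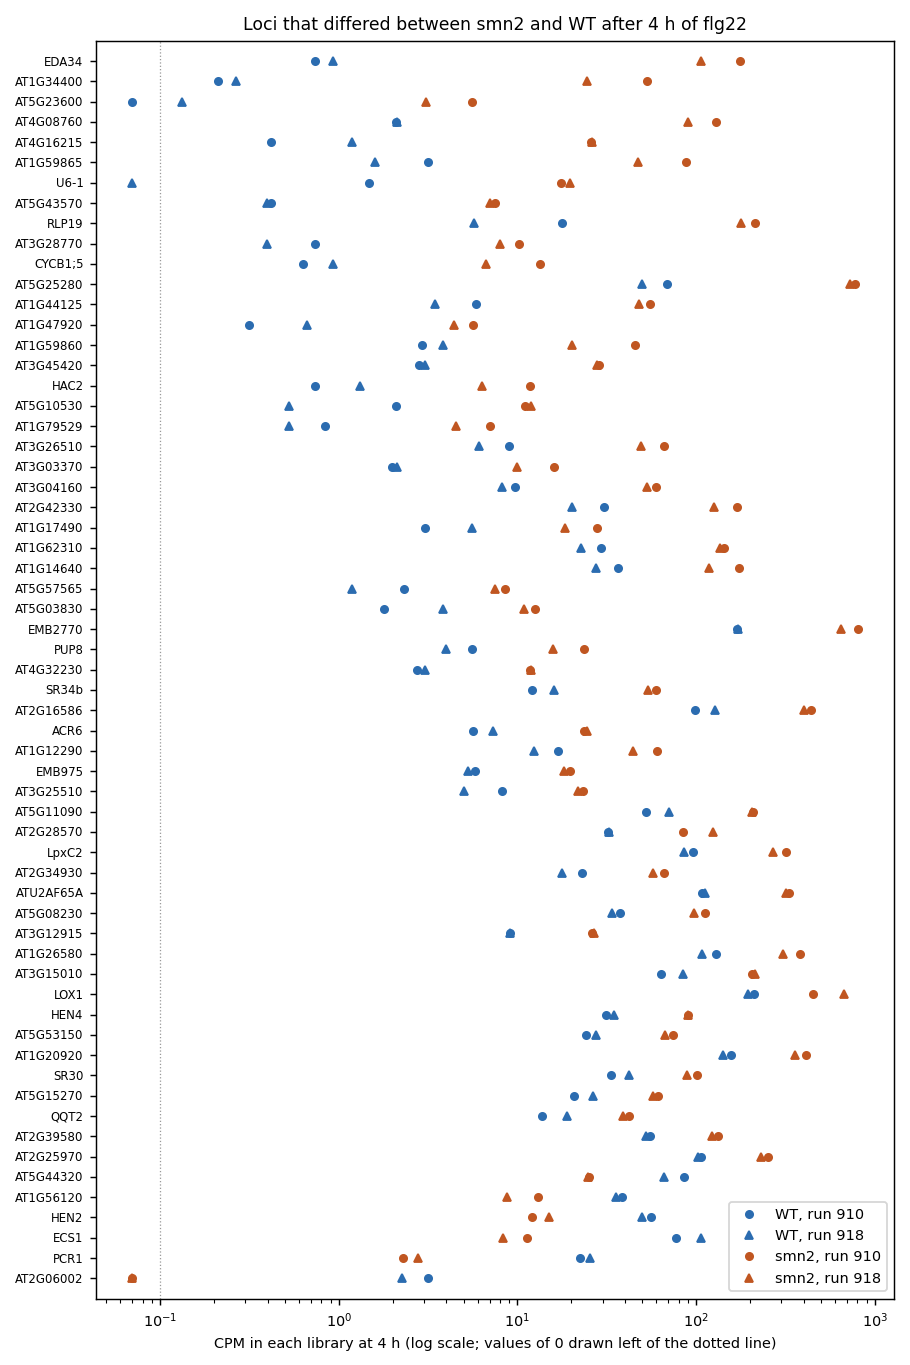
CPM of the 61 called loci in each of the 4 libraries at 4 h (x axis, log scale, values of 0 drawn left of the dotted line), with 1 row per locus ordered by log2 difference. WT libraries are blue and smn2 libraries orange, with circles for run 910 and triangles for run 918. For every locus both smn2 points lie on the same side of both WT points.

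Other genes barely expressed in WT differed in the share of their reads that came from introns. AT3G28770, a putative transmembrane protein gene, had 0.734 and 0.397 CPM in WT and 10.2 and 7.96 CPM in smn2 (log2 3.95 ± 0.48). CYCB1;5, annotated as a B-type cyclin, had 0.629 and 0.926 CPM against 13.4 and 6.66 CPM (log2 3.71 ± 0.52). HAC2, a histone acetyltransferase of the CBP family, had 0.734 and 1.32 CPM against 11.7 and 6.34 CPM (edgeR adjusted p = 0.0357). All 3 were called at 0 h too, with log2 differences of 4.01, 3.04 and 3.73. Intron reads were 4.2% of the smn2 reads of AT3G28770 and 0% of those of HAC2, but 47% of those of CYCB1;5, which was also called by intron reads (log2 3.46, edgeR adjusted p = 0.0114). AT1G47920, of the RNI-like superfamily, had 3 and 5 reads in WT and 52 and 27 in smn2, of which 1.27% were intron reads (log2 3.38 ± 0.53). The non-coding locus AT1G44125 had 5.87 and 3.44 CPM in WT and 55.4 and 48.1 CPM in smn2 (log2 3.46 ± 0.43), but only 0.788% of its reads were uniquely placed and its region overlaps AT1G44120.

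Genes for splicing and RNA-binding proteins made up 11 of the 55 higher loci. They were grouped by annotation after the values were seen, and the share of such genes among all loci tested was not counted, so 11 of 55 is a description. Their log2 differences lay between 1.21 and 2.65 with a median of 1.56, and all 11 were also higher at 0 h, by 1.36 to 2.9. Those with levels given below had 8.2 CPM or more in each WT library, unlike the near-silent loci above.

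EMB2770 (AT4G03430, chromosome 4, 1517134 to 1520563), annotated as a pre-mRNA splicing factor, had 169 and 172 CPM in WT and 807 and 645 CPM in smn2. The log2 difference was 2.09 ± 0.23 (edgeR adjusted p = 0.00831). AT3G04160 encodes a component annotated to the U11/U12 particle of the minor spliceosome, which removes a rare class of introns. It had 9.65 and 8.2 CPM in WT and 59.3 and 53.3 CPM in smn2, a log2 difference of 2.65 ± 0.2 (edgeR adjusted p = 0.000711). AT1G14640, with the SWAP domain of splicing regulators, had 36.7 and 27.7 CPM in WT and 173 and 118 CPM in smn2 (log2 2.17 ± 0.27). AT2G42330, with a GC-rich sequence DNA-binding factor-like and a Tuftelin-interacting domain, had 30.6 and 20.1 CPM against 169 and 126 CPM (log2 2.54 ± 0.26). Its region overlaps a neighbouring gene. At all 4 genes the lower smn2 library was more than 3 times the higher WT library.

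ATU2AF65A encodes the large subunit of U2 auxiliary factor, which recognises the 3′ end of introns. It had 108 and 112 CPM in WT and 333 and 318 CPM in smn2 (log2 1.56 ± 0.2, edgeR adjusted p = 0.0156). HEN4, an RNA-binding KH-domain protein of flower development, had 31.4 and 34.5 CPM against 90 and 90.5 CPM (log2 1.45 ± 0.2). The KH-domain genes AT5G15270 and AT2G25970 had log2 differences of 1.33 and 1.21, and AT3G15010, with an RNA recognition motif, had 1.5.

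Among 20 tested genes for SR proteins, the serine- and arginine-rich regulators of splice site choice, 2 were higher and none lower. Of all loci tested, 0.28% were higher and 0.0305% lower. SR34b had 12 and 16.1 CPM in WT and 59.9 and 53.5 CPM in smn2, a log2 difference of 2.02 ± 0.22 (edgeR adjusted p = 0.00779). SR30 had 33.5 and 42.3 CPM in WT and 101 and 89.1 CPM in smn2, a log2 difference of 1.33 ± 0.2 (edgeR adjusted p = 0.0309). The median over the 20 genes was 0.03, and the relatives SR34 and SR34a had log2 differences of 0.29 and 0.21 and were not called. The libraries of the genotypes overlapped for SR34 but not for SR34a. For SR34b the intron share of reads was 22% in WT and 11.1% in smn2, so the increase lay in exon reads (exon log2 2.2).

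Reads were also counted at the loci of small nuclear RNAs of the spliceosome, which had no annotated exons. The libraries were made from poly(A) RNA, so the level of small nuclear RNA without a poly(A) tail was not measured reliably. Ribosomal RNA took 26.7% to 44.4% of gene reads, and how much RNA without such a tail entered the libraries was not tested. U6 RNA forms the catalytic centre of the spliceosome, and its genes are transcribed by RNA polymerase III from an upstream sequence element and a TATA box. The table's region for U6-1 (chromosome 3, 4951285 to 4952077) extends past the RNA gene on both sides, so the counts include its flanks. U6-1 had 14 and 0 reads in WT and 162 and 121 in smn2, a log2 difference of 4.52 ± 0.75 (edgeR adjusted p = 0.0483). It was called neither by DESeq2 (adjusted p = 0.0676) nor from uniquely placed reads, which were 11.1% of its reads at 4 h.

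U6-26 had 0.839 and 0.132 CPM in WT against 5.22 and 4.88 CPM in smn2 (log2 3.26 ± 0.61, edgeR adjusted p = 0.0832), with 10.3% of its reads uniquely placed. DESeq2 called U6-26 (adjusted p = 0.00473). U6-29 had 0.524 and 0 CPM against 4.35 and 1.63 CPM, and the U6-like RNA U6acat 0.105 and 0.397 CPM against 1.74 and 2.44 CPM. Neither was called (edgeR adjusted p = 0.356 and 0.292), and WT had only 5 and 0 reads for U6-29 and 1 and 3 for U6acat. At each of these 4 loci the libraries of the genotypes did not overlap and smn2 was higher, as at 20.1% of all loci tested. At 0 h edgeR called U6-1, U6-26 and U6acat higher, with adjusted p of 0.0123, 0.0259 and 0.035. U2 copies did not share this order, with log2 differences from -0.97 for U2.6 to 0.01 for U2.5.

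By annotation, 6 of the higher loci were receptor or resistance genes, and 5 of them were also called at 0 h. This group too was formed after the values were seen, and its share among all loci tested was not counted. RLP19 (AT2G15080, chromosome 2, 6533687 to 6536995), a receptor-like protein with leucine-rich repeats and no kinase domain, had 17.7 and 5.69 CPM in WT and 213 and 179 CPM in smn2. Its log2 difference was 4.05 ± 0.48 (edgeR adjusted p = 0.0123). The WT libraries differed 3-fold from each other, yet both lay far below smn2.

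Of the lectin receptor kinases, AT3G45420 had 2.83 and 3.04 CPM in WT and 28.6 and 28 CPM in smn2 (log2 3.26 ± 0.25, edgeR adjusted p = 0.000716). AT5G10530 had 2.1 and 0.529 CPM against 11 and 11.9 CPM (log2 3.05 ± 0.44). NLR proteins are intracellular immune receptors that detect pathogen effectors, and 2 such genes were higher. AT1G12290, of the CC class, had 16.8 and 12.3 CPM in WT and 60.3 and 44.4 CPM in smn2 (log2 1.84 ± 0.26, edgeR adjusted p = 0.0208). AT3G25510, of the TIR class, had 8.18 and 5.03 CPM against 23.3 and 21.8 CPM (log2 1.76 ± 0.27, edgeR adjusted p = 0.035). The leucine-rich repeat gene AT2G34930 had 22.9 and 17.7 CPM against 66.5 and 57.5 CPM (log2 1.61 ± 0.22).

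The list of 33 other tested NLR receptor genes held no called member. The median log2 difference was 0.15 and 22 values were positive, next to 49% of all loci tested. In edgeR 4 were higher and 1 lower at an unadjusted p under 0.05, and DESeq2 called 1 higher, next to 4.7%, 3.24% and 0.713% of all loci tested. RPP1, a TIR-class gene for resistance to downy mildew, had 79.1 and 65.1 CPM in WT and 223 and 152 CPM in smn2 (log2 1.38 ± 0.24, edgeR adjusted p = 0.0625). It was the gene called by DESeq2 (adjusted p = 0.000161), and edgeR called it with the run as a block (adjusted p = 0.0275). Of its reads 66.1% were uniquely placed, the rest being shared with near copies. RPS6 (chromosome 5, 18842701 to 18849741), the TIR-class receptor gene known as SMN1, had 84.5 and 52.9 CPM in WT and 98.9 and 78 CPM in smn2. These libraries overlap, and the log2 difference was 0.36 ± 0.27 (edgeR adjusted p = 0.788).

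Several other well-expressed genes were higher. AT5G25280, a serine-rich protein gene, had 68.9 and 50 CPM in WT and 772 and 728 CPM in smn2 (log2 3.66 ± 0.28, edgeR adjusted p = 0.000711). AT5G11090, with the same annotation, had 52.5 and 70.5 CPM against 208 and 206 CPM (log2 1.75 ± 0.22). AT1G62310 encodes a jumonji-domain protein, a class known for histone demethylases, and had 29.4 and 22.6 CPM against 143 and 136 CPM (log2 2.42 ± 0.22, edgeR adjusted p = 0.00224). LpxC2, of lipid A-like synthesis, had a log2 difference of 1.7, but only 15.4% of its reads were uniquely placed and its region overlaps other loci.

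Among the 6 lower loci, 5 were protein-coding. PCR1, which limits cadmium uptake, had 22.4 and 25.5 CPM in WT and 2.28 and 2.76 CPM in smn2 (log2 -3.26 ± 0.41, edgeR adjusted p = 0.0147). ECS1 had 76.7 and 106 CPM in WT and 11.3 and 8.29 CPM in smn2 (log2 -3.21 ± 0.42, edgeR adjusted p = 0.0173). Both smn2 libraries lay far below both WT libraries at these genes.

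AT1G56120, a leucine-rich repeat receptor kinase gene, had 38.5 and 35.6 CPM in WT and 13 and 8.78 CPM in smn2 (log2 -1.75 ± 0.27, edgeR adjusted p = 0.0343). AT5G44320, a subunit of translation initiation factor eIF3, had 86 and 66.5 CPM against 25.3 and 24.9 CPM (log2 -1.6 ± 0.2, edgeR adjusted p = 0.0137). The non-coding locus AT2G06002 had 47 reads in WT and none in smn2. Against a floor of 3 counts over the smn2 libraries it was at least 14.1-fold lower.

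The baseline comparison of the same genotypes at 0 h came from the same fit but shared no library with the 4 h comparison, and 1% of loci were called in it, 144 higher (0.733%) and 53 lower (0.27%). With the run as a block these were 224 and 89. Of the 61 loci called at 4 h, 51 were called at 0 h in the same direction, which is 83.6% of the 4 h calls and 25.9% of the 0 h calls. The sign at 0 h was the same for 60 of the 61. The 55 loci higher at 4 h had a median log2 difference of 2.06 at 0 h, next to 2.09 at 4 h.

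**Figure D3:**
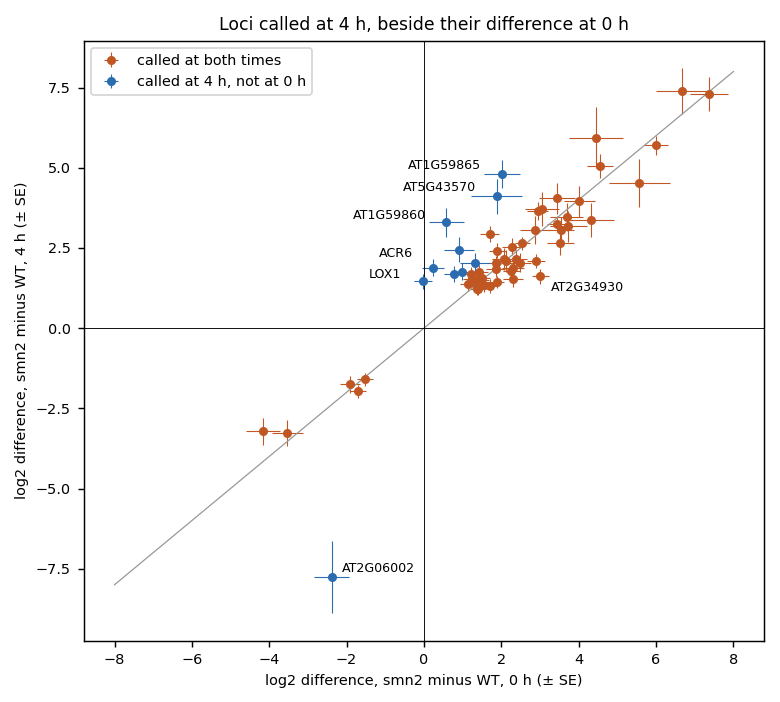
Log2 difference between smn2 and WT at 4 h (y axis) against that at 0 h (x axis) for the 61 loci called at 4 h, each with its SE, and the line of equal values. Most points lie along the line, and the 10 blue points were not called at 0 h.

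The difference of the genotype effects, 4 h minus 0 h, called no locus in edgeR (0% of loci tested, smallest adjusted p = 0.641). At an unadjusted p under 0.05 there were 847 loci (4.31%), and DESeq2 called 30. Without the filter on low counts, edgeR called 148 loci higher and 37 lower for this difference. Thus no genotype effect was shown to depend on time in the main edgeR fit. The 5 loci with the smallest p for this difference were CYP71B22, UGT76E12, AT4G16680, UPI and CYP71B23, and none of them was called by edgeR at 4 h.

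CYP71B22 and CYP71B23, neighbouring cytochrome P450 genes, were lower in smn2 at 0 h, with log2 differences of -1.89 and -1.36 (edgeR adjusted p = 0.0178 and 0.0171). At 4 h CYP71B22 had 32.6 and 25 CPM in WT and 39.9 and 43.6 CPM in smn2, and CYP71B23 86 and 70.9 CPM against 102 and 90.5 CPM, so that both smn2 libraries lay above both WT libraries (log2 0.53 and 0.3). AT4G16680, annotated as a P-loop nucleoside triphosphate hydrolase, went the other way. It was higher in smn2 at 0 h (log2 2.34, edgeR adjusted p = 0.0105), and at 4 h had 102 and 80.4 CPM in WT and 102 and 66.6 CPM in smn2 (log2 -0.11). Its region overlaps AT4G16670. UGT76E12, a glucosyltransferase gene, had log2 differences of 1.9 at 0 h and -1.4 at 4 h, where WT had 23.9 and 32.9 CPM and smn2 12.1 and 9.26 CPM. It was called lower at 4 h by DESeq2 (adjusted p = 0.0347) and not by edgeR (adjusted p = 0.112), and only 2.02% of its reads were uniquely placed. The difference between times was -3.31 ± 0.54 for UGT76E12 and -2.45 ± 0.41 for AT4G16680, against 2.42 ± 0.38 for CYP71B22 and 1.66 ± 0.29 for CYP71B23 (edgeR adjusted p = 0.641 for each).

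The 10 loci called at 4 h and not at 0 h were picked by that contrast, so their larger differences at 4 h are a description. LOX1, a 9-lipoxygenase of oxylipin synthesis, had 74.4 and 66.2 CPM in WT and 65.5 and 72.8 CPM in smn2 at 0 h, and 212 and 196 CPM against 454 and 670 CPM at 4 h. Its log2 difference was -0.02 at 0 h and 1.46 ± 0.24 at 4 h (edgeR adjusted p = 0.048). ACR6, an ACT-domain protein gene, had a log2 difference of 0.23 at 0 h and 1.89 at 4 h, where WT had 5.66 and 7.28 CPM and smn2 23.5 and 24.4 CPM. PUP8, a purine permease, and AT1G17490, annotated as epidermal patterning factor-like, had log2 differences of 2.04 and 2.45 at 4 h and 1.32 and 0.91 at 0 h.

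The neighbours AT1G59860 and AT1G59865 on chromosome 1 both stood out at 4 h. AT1G59860 (22031413 to 22032132, plus strand) encodes a small heat shock protein of the HSP20 family. AT1G59865 (22032313 to 22033297, minus strand) is uncharacterized, and 180 bases separate their ends. AT1G59865 had 3.15 and 1.59 CPM in WT and 87.4 and 47.6 CPM in smn2 at 4 h, with log2 differences of 4.8 ± 0.44 at 4 h and 2.02 at 0 h. AT1G59860 had 2.94 and 3.84 CPM in WT and 45.7 and 20.3 CPM in smn2 at 4 h, with log2 differences of 3.3 ± 0.46 and 0.58. At both genes the smn2 library of run 910 was about double that of run 918. The next gene, AT1G59870, is the ABC transporter gene PEN3 of defence secretion and starts 1208 bases after AT1G59865. It had 4930 and 3500 CPM in WT and 4730 and 4840 CPM in smn2, with overlapping libraries (log2 0.18 ± 0.46).

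A second pair lay on chromosome 5. AT5G43570, a serine protease inhibitor of the potato inhibitor I type, had 0.420 and 0.397 CPM in WT and 7.5 and 6.99 CPM in smn2 (log2 4.11 ± 0.54, edgeR adjusted p = 0.0177). Its neighbour UPI (AT5G43580), of the same family and 282 bases away, had 25.8 and 25.9 CPM against 36.6 and 29.1 CPM (log2 0.35 ± 0.21). UPI was lower in smn2 at 0 h (log2 -1.49, edgeR adjusted p = 0.0193). AT2G34930 went the other way in time, with a log2 difference of 3.01 at 0 h and 1.61 at 4 h (unadjusted edgeR p of the difference = 0.00123). EMB2770 likewise had 2.9 at 0 h and 2.09 at 4 h.

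Genes known to respond to flg22 were examined as a list of 32 markers, of which none was called at 4 h in either direction. At an unadjusted p under 0.05, 5 were higher and 1 lower (4.7% and 3.24% of all loci), and DESeq2 called 1 higher. The median log2 difference was 0.43 and 28 of 32 were positive, against a median of -0.00895 and 49% positive over all loci. At 0 h the median was -0.56. For the difference between times, 10 of 32 had an unadjusted edgeR p under 0.05 with 4 h above 0 h, and 0 with 4 h below. Of all loci tested, 4.31% passed that line in either direction. The libraries did not overlap for 16 of 32 markers, 15 of them higher in smn2, where 20.1% of all loci did not overlap and were higher.

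FRK1, the receptor-like kinase gene widely used as a marker of the flg22 response, had 198 and 139 CPM in WT and 335 and 154 CPM in smn2 at 4 h. These libraries overlap (log2 0.54, edgeR adjusted p = 0.744). PER4, a peroxidase gene, had 130 and 136 CPM in WT and 293 and 321 CPM in smn2 (log2 1.2 ± 0.31, edgeR adjusted p = 0.251), and was the marker called by DESeq2 (adjusted p = 0.0252). PROPEP3, the precursor of a danger peptide, had 50.9 and 37.6 CPM against 89.2 and 87.4 CPM (log2 1, edgeR adjusted p = 0.111). IOS1, a kinase of immune complexes, had 277 and 220 CPM against 353 and 210 CPM (log2 0.18). In PER4 and PROPEP3 each smn2 library was above both WT libraries, while FRK1 and IOS1 were not separated.

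Of 16 tested genes of flagellin perception none was called by edgeR or DESeq2. The median was 0.22 and 13 values were positive, next to 49% of all loci tested. At an unadjusted p under 0.05 in edgeR 2 were higher, next to 4.7% of all loci tested. FLS2 itself had 105 and 120 CPM in WT and 224 and 177 CPM in smn2 (log2 0.84 ± 0.26, edgeR adjusted p = 0.397). RBOHD, the oxidase of the immune oxidative burst, had 368 and 297 CPM against 398 and 445 CPM (log2 0.34). The lists of MAP kinase cascades, camalexin and indole glucosinolates, WRKY transcription factors and cysteine-rich receptor-like kinases had medians of 0.04, 0.37, 0.22 and 0.2, with no member called by edgeR among 25, 27, 59 and 38 genes. DESeq2 called WRKY45, which had 44.8 and 46 CPM in WT and 97.6 and 87.8 CPM in smn2 (log2 1.03 ± 0.21, edgeR adjusted p = 0.108, DESeq2 adjusted p = 0.0318).

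Salicylic acid response genes had a median log2 difference of -0.03 at 4 h and -1.19 at 0 h over 21 tested genes. None was called at 4 h by edgeR or DESeq2, with 2 lower at an unadjusted p under 0.05, while 4 were lower at 0 h. Of all loci tested, 3.24% were lower at that unadjusted line at 4 h and 0.27% were called lower at 0 h. For the difference between times, 8 of 21 had an unadjusted edgeR p under 0.05 with 4 h above 0 h, and 0 with 4 h below. Of all loci tested, 4.31% passed that line in either direction. LURP1, induced late in resistance to downy mildew, had 55.1 and 63.6 CPM in WT and 34.2 and 32.2 CPM in smn2 at 4 h (log2 -0.84, edgeR adjusted p = 0.653), against -2.56 at 0 h (edgeR adjusted p = 0.0204). BGL2, a β-1,3-glucanase known as PR2, had 34.3 and 12.6 CPM against 34.7 and 17.7 CPM at 4 h (log2 0.16), against -3.01 at 0 h (edgeR adjusted p = 0.0287). Aliphatic glucosinolate genes had a median of 0.24 at 4 h and 1.27 at 0 h. None of 24 was called at 4 h, 3 were higher at an unadjusted p under 0.05 in edgeR, and 8 were higher at 0 h. Of all loci tested, 4.7% were higher at that unadjusted line at 4 h and 0.733% were called higher at 0 h. The shifts of both lists between times were not called for any locus in the main edgeR fit.

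**Figure D4:**
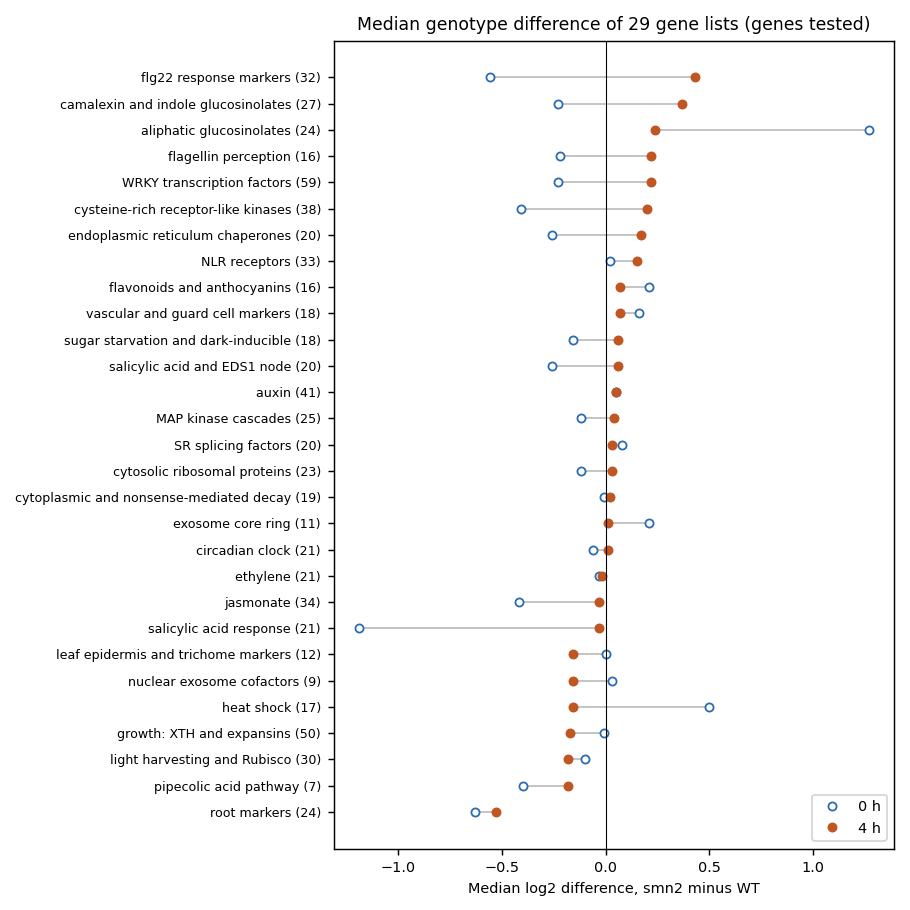
Median log2 difference between smn2 and WT at 0 h (open) and 4 h (filled) of the 29 gene lists, with the number of genes tested in brackets. At 4 h every median lies between -0.53 and 0.43, while salicylic acid response and aliphatic glucosinolate genes lie at -1.19 and 1.27 at 0 h.

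Of the 29 lists, 27 had no member called by edgeR at 4 h, and the exceptions were the exosome cofactors through HEN2 and the SR factors. Of the 651 genes in those 27 lists, 61 (9.37%) had an unadjusted edgeR p under 0.05, next to 7.94% of all loci tested. DESeq2 called 4 of them higher, PER4, RPP1, WRKY45 and the cell wall gene XTH18. Hormone and growth lists had medians of -0.03 for jasmonate, -0.02 for ethylene, 0.05 for auxin and -0.17 for cell wall growth genes. The median of all loci tested was -0.00895. Chaperones of the endoplasmic reticulum had a median of 0.17 with 17 of 20 positive, next to 49% of all loci tested. The chaperone gene BIP1 had 448 and 429 CPM in WT against 629 and 709 CPM in smn2 (log2 0.61, edgeR adjusted p = 0.483). Markers of roots had a median of -0.53, with summed levels of 755 and 876 CPM in WT and 831 and 735 CPM in smn2. None was called by edgeR or DESeq2, with 1 higher and 2 lower at an unadjusted p under 0.05, and the libraries did not overlap for 15 of 24 root markers, 12 of them lower and 3 higher in smn2, against 19.4% and 20.1% of all loci. The part of tissue make-up in any result was not tested.

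Intron reads were tested separately at 4485 loci. At 4 h, 32 loci had more intron reads in smn2 (0.713% of loci tested) and 1 had fewer (0.0223%). With the run as a block these were 103 and 12, and 59 and 1 with intron reads scaled by the gene-read normalization, an alternative chosen after seeing the data. Intron reads were 2.03% and 2% of reads at nuclear loci with exons in WT and 2.3% and 2.44% in smn2. At 0 h, 68 loci had more intron reads in smn2 (1.52%) and 3 had fewer (0.0669%), together 1.58% of loci tested. Of the 33 loci called at 4 h (0.736%), 25 were also called at 0 h.

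Of the 26 loci with annotated exons among the 32, 18 were not called by their gene reads. Their exon reads had log2 differences between -0.48 and 1.07 with a median of 0.31, next to a median of 3.28 for their intron reads. By exon reads edgeR called none, with 4 at an unadjusted p under 0.05 (7.64% of all loci tested by exon reads). The 18 were picked by called intron reads and uncalled gene reads, which include exon reads, so this contrast is a description. Across all loci, 0.212% were higher and 0.0259% lower by exon reads.

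RECQ4A, a DNA helicase of recombination, had 3 and 0 intron reads in WT and 75 and 67 in smn2, which is 1.07% and 44.1% of its reads. The log2 difference was 5.46 ± 0.76 for intron reads (edgeR adjusted p = 0.00107) and -0.41 for exon reads. GAPCP-1, a plastid glyceraldehyde-3-phosphate dehydrogenase, had 15 and 12 intron reads in WT and 506 and 267 in smn2, or 3.79% and 52% of its reads (log2 4.7 ± 0.58). The non-coding locus AT1G79529, also higher, lies over GAPCP-1, and reads of one cannot be told from the other where they overlap. Neither gene was called by its exon reads, with 0.17 as the exon log2 difference of GAPCP-1. By all its gene reads GAPCP-1 had a log2 difference of 1.17, not called by edgeR (adjusted p = 0.0559) but called with the run as a block (adjusted p = 0.0348).

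POLA2, a subunit of DNA polymerase alpha, had 0 and 3 intron reads in WT and 41 and 18 in smn2 (log2 4.04 ± 0.82). ILA, a HEAT-repeat protein of immunity and translation control, had 28 and 19 against 275 and 174, or 1.13% and 11.1% of its reads (log2 3.16 ± 0.5). CA1, the plastid carbonic anhydrase, had 23 and 16 against 193 and 103 (log2 2.81 ± 0.6). All 3 had exon log2 differences between -0.45 and -0.02. CESA4, a cellulose synthase of secondary walls, and EBF1, an F-box protein of ethylene signalling, had intron log2 differences of 3.41 and 3.33, the latter from 4 reads in WT and 44 in smn2.

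**Figure D5:**
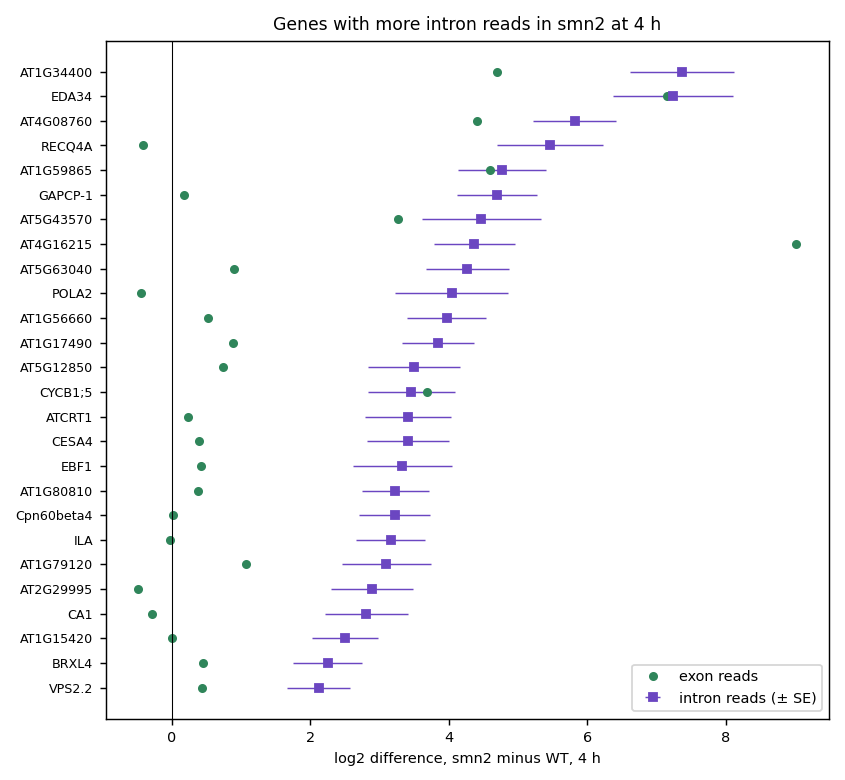
Log2 difference between smn2 and WT at 4 h (x axis) of intron reads (squares, with SE) and exon reads (circles) for the 26 genes with exons whose intron reads were higher in smn2. Intron values run from 2.12 to 7.37. Exon values lie between -0.48 and 1.07 for the 18 genes not called by gene reads, and between 0.89 and 9.02 for the rest. The 18 were picked by these calls, so the gap between their squares and circles is a description. The exon value of AT4G16215, 9.02, is fitted against no WT exon reads and is no bound.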

How the data were processed

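Poly(A) RNA of whole seedlings was sequenced as single reads on an Ion Proton, per the labels' protocols and the file headers. The authors deposited 1 table of 28642 loci with unnormalized read counts for genes, exons, introns and exon-exon junctions, as total and uniquely placed reads. The RPKM values deposited by the authors were not tested. The submitters' processing notes name TAIR10, while the sources used here do not give aligner, annotation release or strand use, so antisense and overlapping genes cannot be told apart. Positions count from 1. Names came from the RefSeq TAIR10.1 gene table, which matched 28009 loci.

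Samples were grouped by title. Total gene counts were fitted with edgeR 4.0.16 (R 4.3.3) with TMM and filterByExpr, all 8 libraries in 1 fit with 4 residual degrees of freedom, and p-values were adjusted over all loci of a comparison. The SE is the log2 value divided by the root of the F statistic. Intron counts used the same design with library sizes from gene reads and TMM factors from the intron counts. Intron differences are thus relative to the intron reads of other loci. Their median over all loci at 4 h was -0.0049, and 0.233 when scaled by the gene-read normalization. DESeq2 1.42.0 and other settings served as alternatives. The scripts were tested on simulated data.

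Libraries held 6856882 to 15791296 gene reads, and 3 counts correspond to 0.161 to 0.488 CPM. The numbers 910 and 918 name sequencing runs in the file headers, and same-numbered libraries share a run; deviations of the 4 h genotypes from their group means correlated at 0.129 across loci, and at 0.0477 to 0.452 over 6 pairs of groups. The series calls the replicates biological. Genes were named by a rule: HEN2 and RPS6; the 15 largest called changes per direction among coding genes with non-overlapping groups and a mean of at least 2 CPM, and 8 among other loci; up to 4 genes per list; the 5 smallest p-values of the time difference; and the largest intron changes. From the lists and intron changes only some of these genes are described. Other named genes, and which of the list genes to describe, were chosen after their values were seen. Members and lists were chosen with earlier results of these data known. One sequence result is not reported here.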

Additional observations from a re-analysis of the deposited data

How the results depend on the processing

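All 61 calls at 4 h kept their sign in every alternative that gave a value, and no result reversed. The libraries of the genotypes did not overlap at these 61 loci, so their signs were all but fixed beforehand. Loci higher and lower at 4 h numbered 55 and 6. They numbered 140 and 19 with DESeq2, 339 and 141 with no filter on low counts, 108 and 8 with the replicate block (sequencing run), and 23 and 3 when tested against a fold of 1.5. With only the 4 libraries of the comparison 10 were lower. Of the 480 calls without the filter, 479 were at loci the filter had kept, and the cause was not tested. Leaving out 1 library gave 6 to 69 higher and 0 to 9 lower. At 0 h, 144 and 53 became 435 and 438 with no filter, 224 and 89 with the replicate block, and 17 to 107 and 3 to 76 when 1 library was left out. For the difference between times, 0 and 0 became 27 and 3 with DESeq2 and 148 and 37 with no filter. For intron reads, 32 and 1 became 61 and 3 with no filter, 103 and 12 with the replicate block and 59 higher with gene-read normalization; 1 library left out gave 13 to 69 higher and 1 to 3 lower. AT1G21580, RPP1 and GAPCP-1 gained a call by gene reads with the block, as did 1 unnamed gene of the circadian clock list, and no other named gene recomputed under it changed its call. DESeq2 called AT1G21580, RPP1, PER4, WRKY45, XTH18, UGT76E12, U6-26 and GAPCP-1, which edgeR did not, and not U6-1. With 2 libraries per group, a difference that was not called is not shown to be absent.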
